A study of Mus musculus with 16 samples.

Results

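H3K36me3 regions that both libraries of Dicer-intact mouse stromal cells listed, and neither library of Dicer-deleted cells did, are described here as WT-only regions. The peaks of the 4 H3K36me3 lists called against whole-cell extract were merged on chromosomes 1 to 19 where they overlapped or touched. Of the 38647 regions this gave, 2689 held a peak in both WT libraries and in neither KO library. The members were thus chosen by the presence and absence of called H3K36me3 peaks, and that listing is given as a description with no test. Coordinates are those of mm9. No gene annotation or sequence of that build was used here, so regions are named by position and not by gene.

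The cells were mouse mesenchymal stem cells (MSCs) of C57BL/6 background, immortalized and grown as monoclonal lines. MSCs are stromal cells able to form bone, cartilage and fat. The KO cells were Dicer -/- and lacked the ribonuclease that cuts microRNA precursors. The WT cells were Dicer f/f, with a floxed but undeleted gene. Each genotype had 2 H3K36me3 libraries, numbered replicate 1 and 2, beside 2 of H3K4me3 and 2 of H3K27me3. Both genotypes were cultured and crosslinked in the same way per the labels. Nothing in the labels says that replicates came from separate cultures or clones, or how many clones each genotype had. Values between replicates thus measure only the spread of these samples. The genotype and the clone or clones that carry it cannot be told apart. The marker genes of MSCs could not be placed on these coordinates, and the cell type was not checked here.

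H3K36me3 is set by SETD2, a methyltransferase that travels with elongating RNA polymerase II. The mark therefore covers the bodies of transcribed genes and is usually strongest towards their far ends. H3K4me3 marks the promoters where such transcription starts, and H3K27me3 is the mark of Polycomb repressive complex 2, whose activity H3K36me3 hinders on the same histone tail. A peak caller cuts a broad mark such as H3K36me3 into neighbouring pieces, so a listed region is often a part of a longer domain.

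The H3K36me3 lists differed in length within a genotype as well as between genotypes. KO replicates 1 and 2 held 33028 and 35213 peaks over 86.5 and 108 Mb, and WT replicates 1 and 2 held 37562 and 36982 peaks over 106 and 173 Mb. WT replicate 2 stood apart through wider peaks, with a median of 2290 bp against 1566 to 1660 bp in the other H3K36me3 lists. The lists carry no read counts, so sequencing depth was unknown, and its part in the length of a list was not tested.

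WT-only regions made up 6.96% of all H3K36me3 regions, and KO-only regions, 344 in number, made up 0.89%. Of the 17281 regions listed in both WT libraries, 15.6% were absent from both KO lists. Of the 13090 listed in both KO libraries, 2.63% were absent from both WT lists. Other ways of sharing were as frequent as the WT-only one. WT replicate 2 alone listed 12258 regions, all 4 libraries listed 11129, and replicate 2 of both genotypes without either replicate 1 listed 2525. A further 2711 regions had a peak in both WT libraries and KO replicate 2 only, and 752 in both WT libraries and KO replicate 1 only. Leaving out 1 library makes the rule looser, so a higher count follows by construction, by an amount that differed between libraries. The count was 5509 without KO replicate 2, 15375 without WT replicate 1 and 6865 without WT replicate 2, and 3490 without KO replicate 1. With neighbouring peaks merged up to 1 kb apart it was 1652.

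**Figure D1:**
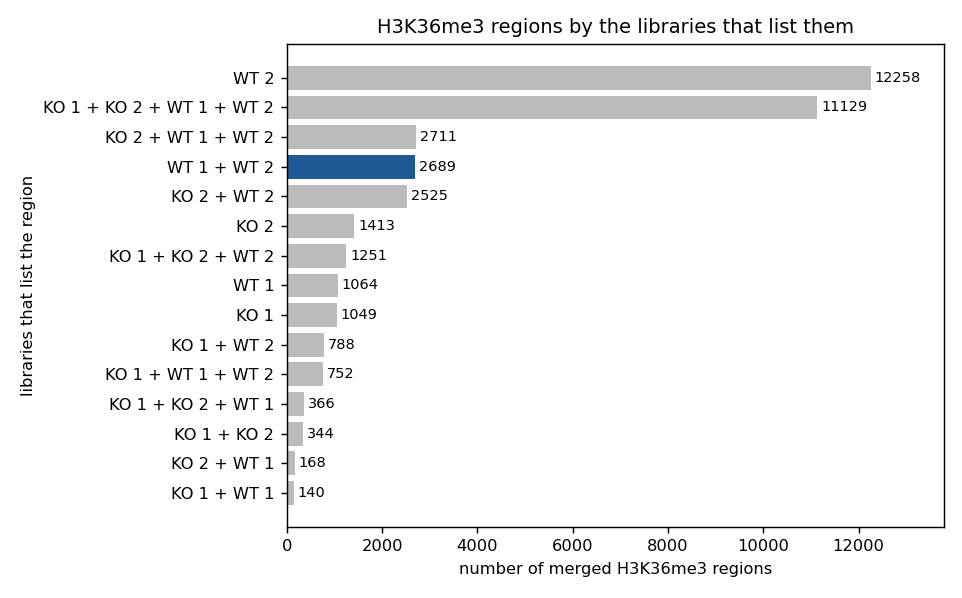
Number of merged H3K36me3 regions (x axis) for each combination of libraries that list them (y axis, KO and WT with the replicate number), with the WT-only combination in blue. The 2689 WT-only regions are similar in number to the 2525 listed in replicate 2 of both genotypes, and the longest bar is WT replicate 2 alone with 12258.

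Most WT-only regions were narrow. Their median width was 2313 bp, with the middle 50% between 1604 and 3511 bp, against 2265 bp over all H3K36me3 regions and 7478 bp for regions listed in all 4 libraries. KO-only regions had a median of 1841.5 bp and the regions listed in replicate 2 alone one of 2045 bp. With a single WT list, where the rule is looser and fewer peaks are merged, the WT-only median was 1390 bp without WT replicate 1 and 1021 bp without WT replicate 2. WT-only regions of at least 5 kb numbered 323, and 42 (1.56%) reached 10 kb, against 37.2% of the regions listed in all 4 libraries. In sum they spanned 7.98 Mb, of 187 Mb over all H3K36me3 regions.

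Both WT libraries saw these regions differently. Peaks of WT replicate 1 covered a median of 1126 bp per region and 4.09 Mb in sum, and peaks of WT replicate 2 covered a median of 2151 bp and 7.52 Mb. In 2284 regions (84.9%) WT replicate 2 covered more bases than WT replicate 1, and over all 2689 regions the median ratio was 1.69. In regions listed in all 4 libraries the same was true of 94.2%, with a median ratio of 1.37. A single peak made up the listing of 2351 regions in WT replicate 1 and of 2572 in WT replicate 2.

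The peaks that defined WT-only regions ranked low to middle in their own lists. The scores are the authors' and were compared only within a list, as the percentile of a region's strongest peak. The median percentile was 25.2 in WT replicate 1 and 45.7 in WT replicate 2, against 75.9 and 82.3 for regions listed in all 4 libraries. A region with more peaks has more chances of a high strongest peak, and a wider one more chances of meeting a KO peak. Both follow from the measure and the rule, and their part in these ranks and widths was not tested. Regions that parted the libraries in other ways ranked about as low, at 26.2 in KO replicate 2 and 42.0 in WT replicate 2 for those of replicate 2 alone, and at 38.4 and 33.8 in KO replicates 1 and 2 for KO-only regions. Only 10 WT-only regions ranked above percentile 90 in WT replicate 1 and 46 did in WT replicate 2. In WT replicate 1 the strongest peak scored under 160 in 1731 regions (64.4%), where the lowest score of the list was 80. In WT replicate 2 this held for 543 regions (20.2%). Both WT scores were at least 160 in 847 regions (31.5%).

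**Figure D2:**
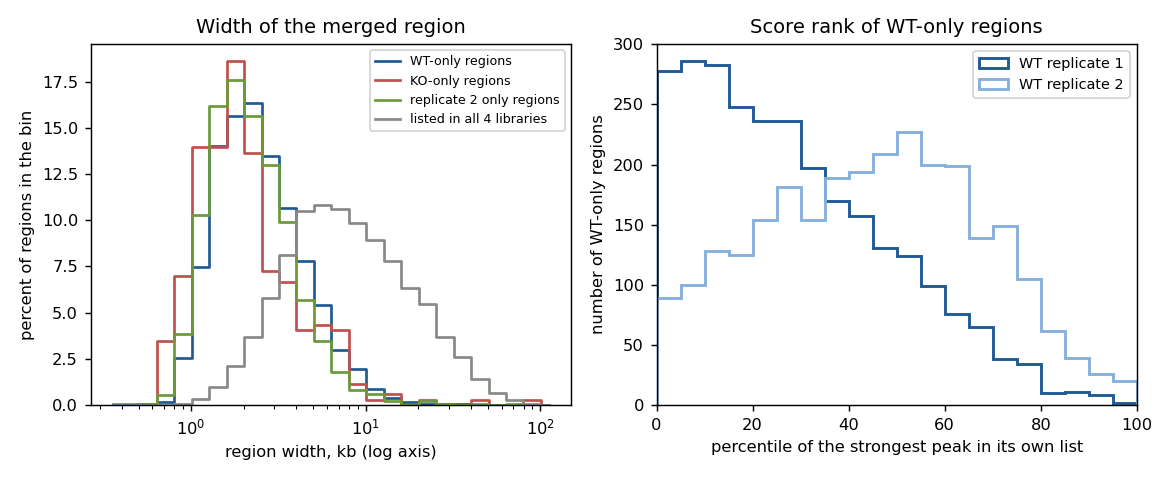
Left, the percent of regions (y axis) by width in kb (x axis, log) for WT-only, KO-only, replicate 2 only regions and regions listed in all 4 libraries. Right, the number of WT-only regions (y axis) by the percentile of their strongest peak in its own WT list (x axis), with medians of 25.2 in WT replicate 1 and 45.7 in WT replicate 2.

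Width and rank went together, and ranking a region by its strongest peak ties them in part. Across the 2689 regions the Spearman correlation of width with the mean percentile was 0.79, and that of the percentiles in both WT lists 0.29, which describes regions of the same 2 libraries and not replicates. WT-only regions under 2 kb, 1077 in all, had median percentiles of 18.2 in WT replicate 1 and 26.3 in WT replicate 2. Those of at least 10 kb had medians of 60.9 and 86.5.

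The rule has an edge on the KO side, where a gap or an overlap of a few bases decides. The 5 WT-only regions closest to a KO peak lay 1 to 18 bp from it, were 915 to 3670 bp wide and scored between 81.3 and 123 in WT replicate 1. None of these 5 held a difference peak. Just outside the rule, the 5 regions of both WT libraries with the least KO cover had 390 to 532 bp of it, 4 of them in KO replicate 2 alone. Regions listed in both WT and a single KO library numbered 3463 and were wider than WT-only ones, with a median of 3362 bp. In 44.7% of these the KO peak scored under 160.

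H3K36me3 that the KO libraries did list was usually near. The gap from a WT-only region to the nearest KO peak had a median of 5228 bp, and 397 regions (14.8%) lay within 1 kb of such a peak and 1758 (65.4%) within 10 kb. At the other end, 319 (11.9%) had no KO peak within 50 kb and 180 (6.69%) none within 100 kb. The regions of replicate 2 alone lay a median of 4327 bp from the nearest peak of the libraries that lacked them, and KO-only regions 7902 bp from the nearest WT peak.

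WT-only regions were then placed beside the H3K36me3 that was kept, meaning regions listed in all 4 libraries. Kept H3K36me3 lay within 10 kb of 1190 WT-only regions (44.3%, 95% Wilson interval 42.4% to 46.1%, counting error only), on both sides of 305 and on 1 side of 885. The other 1499 (55.7%) stood apart from it. Of these, 603 had another KO peak within 10 kb and 896, which is 33.3% of all WT-only regions, had none. The share beside kept H3K36me3 was 50.0% over all regions, 46.6% for regions of replicate 2 alone and 27.6% for KO-only regions. WT-only regions thus flanked kept H3K36me3 about as often as regions that parted the libraries by replicate number, and no test was run on these shares. The share moved with the definition, to 32.7% within 5 kb and 67.6% where kept meant 1 library or more of each genotype.

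**Figure D3:**
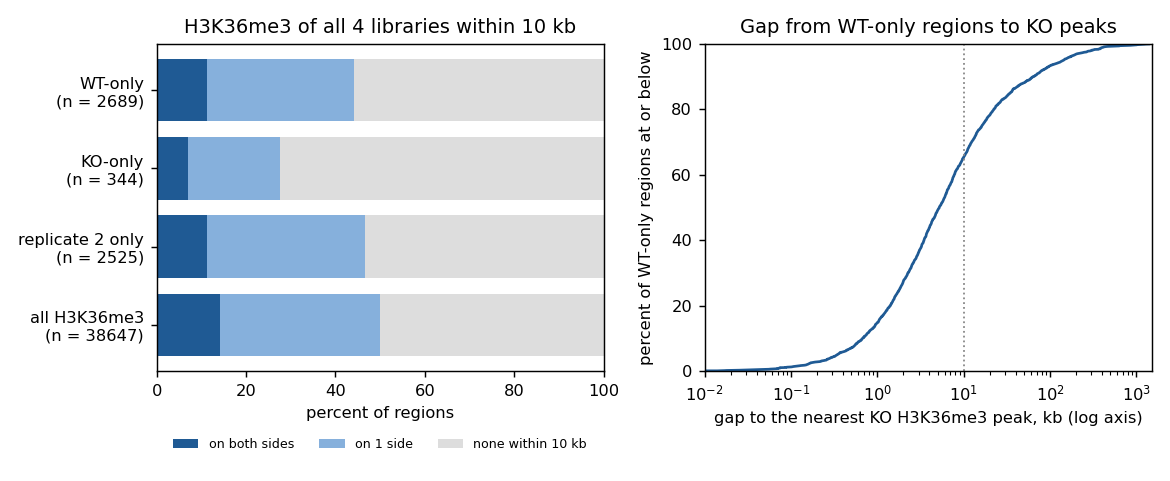
Left, the percent of regions (x axis) with H3K36me3 of all 4 libraries within 10 kb on both sides, on 1 side or on neither, for 4 sets of regions (y axis). Right, the cumulative percent of WT-only regions (y axis) by the gap to the nearest KO H3K36me3 peak in kb (x axis, log), with 65.4% at or below 10 kb, marked by the dotted line.

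WT-only regions enclosed by kept H3K36me3 were narrower and ranked lower than those far from any KO peak. The 305 with kept H3K36me3 on both sides had a median width of 2068 bp and filled a median of 28.1% of the gap between the kept regions, which was 8550 bp at the median. The 896 with neither kept H3K36me3 nor any KO peak within 10 kb had a median width of 2495 bp and median percentiles of 27.3 and 49.9 in WT replicates 1 and 2. For the regions enclosed on both sides these percentiles were 23.6 and 39.3. Of the 42 regions of at least 10 kb, 32 (76.2%) stood apart from kept H3K36me3, against 562 of the 1077 under 2 kb (52.2%).

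For the 885 regions with kept H3K36me3 on 1 side, the nearest promoter mark was located next. It was taken as an H3K4me3 region listed in all 4 H3K4me3 libraries. It lay on the side away from the kept H3K36me3 for 423 regions (47.8%) and on the same side for 316 (35.7%), overlapped 71 (8.02%) and was over 100 kb away for 75 (8.47%). Among the 892 such regions of replicate 2 alone the counts were 388 (43.5%) away and 358 (40.1%) on the same side.

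The deposited difference lists come from the same libraries and the same contrast as the rule, so they describe the WT-only regions and support nothing. Of the H3K36me3 difference peaks of a library, 81.1% to 96.2% shared both ends with one of its whole-cell extract peaks, and 0% with one of another library. They were read as peaks of that library over the other genotype, though the labels do not name the control. A difference peak of WT replicate 1 fell on 605 WT-only regions (22.5%, against 5.27% of all regions), and one of WT replicate 2 on 627 (23.3%, against 8.5%). Both WT lists did so at 301 regions (11.2%, against 1.22%), and neither did at 1758 (65.4%). The share called in both was 6.43% without KO replicate 2, and it was 18.4% without WT replicate 1 and 17.1% without WT replicate 2, where a single WT list made the call. KO replicate 1 placed its difference peaks on 0 WT-only regions (4.35% of all regions) and KO replicate 2 on 1 (2.37% of all), and no region was KO-higher in both replicates, where 0.688% of all regions were. Among the 471 regions that were WT-higher in both replicates, the 301 WT-only ones made up 63.9%.

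Calls in both WT difference lists were more frequent in wider WT-only regions and, taken separately, in those farther from KO H3K36me3. They fell on 24 of the 42 regions of at least 10 kb (57.1%) and on 37 of the 1077 under 2 kb (3.44%). They fell on 3 of the 305 regions with kept H3K36me3 on both sides (0.984%), on 48 of the 885 with it on 1 side (5.42%), on 45 of the 603 near another KO peak (7.46%) and on 205 of the 896 with none within 10 kb (22.9%). Over all H3K36me3 regions the share was 1.22%, which regions with kept H3K36me3 on both sides did not exceed. Median width was 4249 bp for the 301 regions and 1957 bp for the 1758 with no call in either WT list. A wider region offers more length for a difference peak to meet, and the part of width in these shares was not tested.

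Neighbouring WT-only regions formed short runs. Joined where they lay less than 10 kb apart, the 2689 regions fell into 2049 groups, of which 1619 held a single region and 133 held 3 or more. The number of groups was 7641 without WT replicate 1, 4170 without WT replicate 2 and 3699 without KO replicate 2. Regions with a WT-only neighbour at that distance made up 39.8%, against 91.6% over all H3K36me3 regions with a neighbour of any kind. Within the other sets the share was 67.8% for regions listed in all 4 libraries, 36.2% for those in both WT and 1 KO library, 34.6% for KO-only regions and 28.4% for the regions of replicate 2 alone. A larger set offers more neighbours, and these sets ran from 344 to 11129 regions, so their shares are not directly comparable. Of the 133 longer runs, 97 (72.9%) had no KO peak anywhere between their first and last region. These 97 held 335 WT-only regions, with a median span of 15835 bp and a maximum of 49380 bp.

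The 5 runs with most members were read in detail. The longest by count was chr14:47672185-47718608, with 10 WT-only regions. H3K36me3 peaks covered 0 and 1349 bp of it in KO replicates 1 and 2 and 21868 and 20611 bp in WT replicates 1 and 2, so the WT lists nearly matched in length here. None of its regions was called in both WT difference lists, and no library listed H3K4me3 within 10 kb. A run of 7 at chr6:84111003-84158952 was covered over 0 bp in both KO libraries and over 15847 and 40165 bp in WT replicates 1 and 2. Its nearest KO peak lay 161325 bp away, and all 7 of its regions were called in both WT difference lists.

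Like the first run, the other runs had KO H3K36me3 within or close to them. At chr4:89022656-89073905, with 7 regions, peaks covered 4492 and 5363 bp in the KO lists, against 33387 and 36720 bp in the WT lists. H3K4me3 was listed in or within 10 kb of that run, over 913 and 1698 bp in the KO libraries and over 0 and 1344 bp in WT. At chr14:87356483-87407965, again with 7, peaks covered 1059 and 7226 bp in the KO lists, against 31280 and 42608 bp in the WT lists. The 6 regions at chr11:61589709-61633105 had 0 bp in both KO libraries, 8519 and 29620 bp in WT, and a KO peak 4557 bp away. In each of the 5 runs both WT libraries covered more bases than either KO library. Regions chosen for absence in KO fix that order in part.

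**Figure D4:**
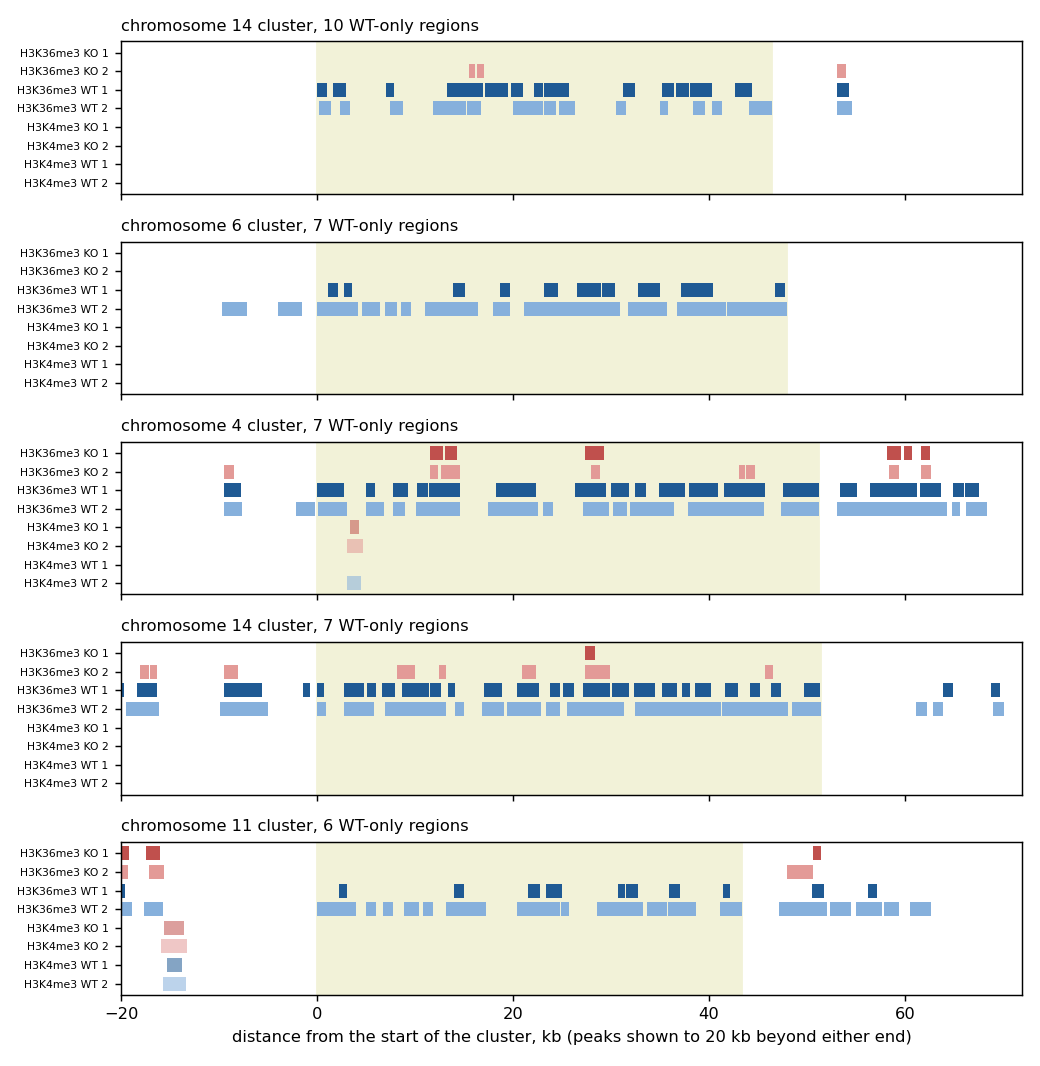
H3K36me3 and H3K4me3 peaks of each library (rows, KO above WT) along the 5 runs with most WT-only regions, by distance from the start of the run in kb (x axis), with the run shaded. The chromosome 6 run has no KO peak, and the chromosome 11 run has KO peaks close to its end. The chromosome 4 run and both chromosome 14 runs have short KO peaks inside them, in KO replicate 2 alone for the run with 10 regions.

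The 10 WT-only regions with the highest mean percentile in both WT lists were between 5609 and 16868 bp wide. All 10 were over 10 kb from any KO peak and held a difference peak of both WT libraries. The first, chr3:59119114-59124722, was covered over 0 bp in both KO libraries and over 4990 and 5380 bp in WT replicates 1 and 2, at percentiles 91.1 and 99.4. Its nearest KO H3K36me3 peak lay 625242 bp away and no library listed H3K4me3 within 10 kb. At chr19:28650104-28665040, covered over 7848 and 14937 bp in WT, H3K4me3 within 10 kb was listed over 0 bp in both KO libraries and over 0 and 2936 bp in WT. At chr11:109552282-109565631 H3K36me3 covered 7553 and 13012 bp in WT, and H3K4me3 covered 0 and 842 bp in the KO libraries and 0 and 2349 bp in WT.

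Other high-ranking regions had H3K4me3 in the KO libraries too. Near chr9:58133036-58147062, with 10826 and 13553 bp of H3K36me3 in WT, H3K4me3 covered 1436 and 2729 bp in the KO libraries, against 438 and 2312 bp in WT. Near chr10:67449533-67458124 H3K4me3 covered 3141 and 4855 bp in the KO libraries, against 1976 and 5043 bp in WT, and the KO and WT values overlapped at both places. These 2 sites had the promoter mark in all 4 libraries and H3K36me3 in the WT lists alone. At chr3:66024066-66030386 H3K4me3 covered 0 and 3866 bp in the KO libraries, against 2743 and 5486 bp in WT. At chr4:111098158-111115025 it covered 0 and 523 bp in the KO libraries, against 1274 and 1515 bp in WT. Only at the chromosome 4 site did the WT values both exceed the KO ones, while both WT libraries had an H3K4me3 difference peak near either. Near the chromosome 9 site H3K4me3 difference peaks of both genotypes were listed. They covered 438 and 1217 bp in WT replicates 1 and 2 and 682 bp in KO replicate 1. The remaining 3, chr6:38688603-38697910, chr3:121703792-121719947 and chr10:81836012-81843555, had no H3K4me3 within 10 kb in any library. H3K27me3 was listed within 10 kb in KO replicate 2 alone, over 791 bp near the chromosome 4 site and 127 bp near the chromosome 6 site. An H3K27me3 difference peak of KO replicate 2 covered 870 bp near chr3:121703792-121719947. No library listed H3K27me3 near the others of the 10.

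The widest WT-only regions showed how far both WT lists could differ. The widest of all, chr19:28563305-28599930, spanned 36626 bp, covered over 17129 bp in WT replicate 1 and over its whole length in WT replicate 2, and a KO peak lay 4998 bp away. At chr3:54166307-54196047 the WT libraries covered 1984 and 29741 bp of 29741 bp, with H3K4me3 within 10 kb over 0 and 1827 bp in the KO libraries and over 685 and 4749 bp in WT. A pair on chromosome 8, chr8:46762425-46788439 and chr8:46830097-46852789, was covered over 7788 and 5207 bp in WT replicate 1 and over the full 26015 and 22693 bp in WT replicate 2. The fifth, chr8:96337270-96359225, was covered over 5366 and 21956 bp in WT. Near it H3K27me3 was listed over 0 and 5069 bp in the KO libraries and over 0 bp in both WT libraries, and H3K4me3 over 1899 and 5672 bp in the KO libraries and over 2486 and 4986 bp in WT. In all 5, WT replicate 2 covered more than WT replicate 1.

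WT-only regions were spread unevenly over the chromosomes. They made up 13.7% of the H3K36me3 regions of chromosome 14 (198 of 1441), 11.7% on chromosome 4 (288 of 2466) and 10.8% on chromosome 9 (274 of 2526), and 3.63% on chromosome 8 (78 of 2151), the lowest share of the 19. KO-only regions on the first 3 of these chromosomes numbered 3, 10 and 2. The order changed when WT-only regions were taken as a share of those listed in both WT libraries. That share was 30.3% on chromosome 9, 26.9% on chromosome 14 and 23.6% on chromosome 4, against 15.6% over all 19 chromosomes. On chromosome 12 the counts came closer, with 74 WT-only and 59 KO-only regions. Of the WT-only regions on chromosome 9, 124 (45.3%) had no KO peak within 10 kb, against 52 (26.3%) on chromosome 14. Over all WT-only regions this was 34.6%, and on chromosome 6 it was 47.8%.

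H3K4me3 came from libraries the rule did not use, so it could be compared between genotypes over libraries. An H3K4me3 peak lay within 10 kb of 902 and 1100 WT-only regions in KO replicates 1 and 2 (33.5% and 40.9%) and of 792 and 977 in WT replicates 1 and 2 (29.5% and 36.3%). The genotypes overlapped, as KO replicate 1 fell between the WT libraries. The means were 37.2% ± 5.21 in KO and 32.9% ± 4.86 in WT (SD, n = 2 each), a difference of 4.33 percentage points with an exact two-sided permutation p = 0.667. The smallest p that 2 against 2 libraries allow is 0.333. Over all H3K36me3 regions the difference was 4.77 points, with the genotypes overlapping there too (exact two-sided permutation p = 0.667, n = 2 each). A lower share near WT-only regions in KO was thus not detected, though 2 libraries per genotype limit what could be.

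Direct overlap of both marks was rarer. H3K4me3 peaks met 102 and 212 WT-only regions in KO (3.79% and 7.88%) and 101 and 192 in WT (3.76% and 7.14%), while over all H3K36me3 regions the shares were 7.29% and 12.1% in KO, against 6.65% and 10.5% in WT. The median distance to the nearest H3K4me3 region of all 4 libraries was 23378 bp, against 9494 bp for H3K36me3 listed in all 4 libraries and 20057 bp over all regions. For 754 WT-only regions (28.0%) it was over 50 kb.

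The H3K4me3 difference lists were set beside the same shares over all H3K36me3 regions. A KO difference peak lay within 10 kb of 202 and 226 WT-only regions in replicates 1 and 2 (7.51% and 8.40%, against 8.64% and 9.72% of all regions). A WT difference peak lay within 10 kb of 197 and 60 (7.33% and 2.23%, against 4.72% and 1.32%). H3K4me3 was KO-higher in both replicates near 113 WT-only regions (4.20%, against 4.82%) and WT-higher in both near 29 (1.08%, against 0.453%). Around KO-only regions these shares were 12.2% and 1.45%. The WT-higher share near WT-only regions was above that of all regions in either replicate, and no test was run on it, since regions are not replicates. For regions listed in both WT and 1 KO library it was 6.44% and 0.982% in WT replicates 1 and 2. For regions of all 4 libraries it was 5.68% and 0.899%. Both sets were thus above all regions in replicate 1 too, and below them in replicate 2.

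**Figure D5:**
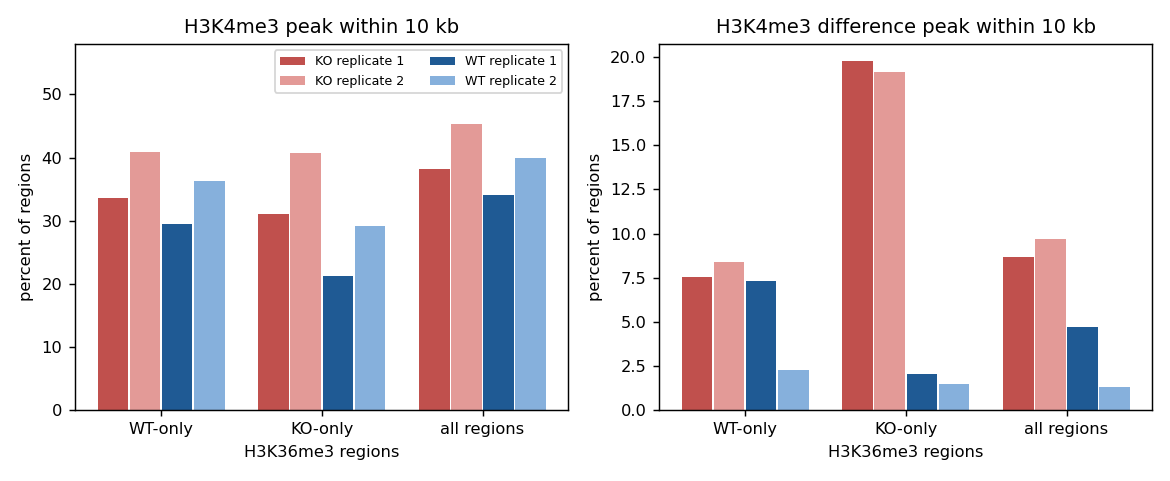
Percent of H3K36me3 regions (y axis) with an H3K4me3 peak (left) or an H3K4me3 difference peak (right) within 10 kb in each library (bars, KO then WT), for WT-only, KO-only and all regions (x axis). WT difference peaks lie near 7.33% and 2.23% of WT-only regions and near 4.72% and 1.32% of all regions.

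WT-only regions that the H3K36me3 difference lists also called had more WT difference peaks of H3K4me3 around them, while the KO shares differed less. Among the 301 called in both WT lists, H3K4me3 difference peaks of KO replicates 1 and 2 lay near 9.97% and 8.64%, and those of WT replicates 1 and 2 near 19.3% and 11.3%. Among the 1758 called in neither the shares were 6.77% and 8.25% for KO and 4.38% and 0.683% for WT. The 301 were also wider, at a median of 4249 bp against 1957 bp, which widens the stretch searched. The part of width was not tested. The share with an H3K4me3 peak at all differed less, at 33.6% and 42.5% in KO and 29.9% and 42.5% in WT for the 301, and 33.3% and 40.0% in KO and 29.2% and 34.8% in WT for the 1758. The 301 regions fell into 222 groups when joined under 10 kb, so they are not all separate places. An H3K4me3 region listed in both WT libraries and neither KO library lay within 10 kb of 7 WT-only regions (0.260%, against 0.116% of all regions). H3K4me3 of the reverse kind, called in KO replicates 1 and 2 alone, lay that near to 58 WT-only regions (2.16%, against 2.51% of all regions). For the 344 KO-only H3K36me3 regions the shares were 1.16% for the WT kind and 5.52% for the KO kind. No test was run on these shares.

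H3K27me3 was almost absent from WT-only regions in both genotypes, as it was from all H3K36me3 regions. Its peaks met 0 and 6 WT-only regions in KO replicates 1 and 2 (0% and 0.223%) and 0 in both WT libraries. Over all H3K36me3 regions the shares were 0.00259% and 0.101% in KO and 0.0207% and 0.0725% in WT. Within 10 kb H3K27me3 was listed near 4 and 77 WT-only regions in KO (0.149% and 2.86%, against 0.171% and 3.18% of all regions). In WT it was near 11 and 73 (0.409% and 2.71%, against 0.655% and 3.50% of all regions), and the genotypes overlapped. The difference was -0.0558 percentage points (exact two-sided permutation p = 1, n = 2 each, smallest p 0.333), and its sign turned with the merging of peaks and with single libraries left out. H3K27me3 KO replicate 1 had a list of 698 peaks, against 17471 in KO replicate 2 and 2533 and 14523 in WT, so the replicates differed more than the genotypes. H3K27me3 was KO-higher in both replicates near 1 WT-only region (0.0372%, against 0.0233% of all regions) and WT-higher in both near 13 (0.483%, against 0.538%). The absence of H3K36me3 from the KO lists is the rule itself, and the rarity of H3K27me3 was shared by all H3K36me3 regions.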

How the data were processed

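Histone ChIP-seq peak lists of 12 libraries were used: 3 marks, 2 genotypes and 2 replicates each, grouped and numbered by their titles. The 4 whole-cell extract samples had no files of their own here. Bowtie 0.12.7, MACS (its version is not given) and mm9 are named in the submitters' processing notes. For each library the authors deposited peaks called over whole-cell extract and a difference list, with a score per peak whose formula no source used here gives. Depth is unknown.

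Regions, gaps, groups and overlaps of at least 1 bp were computed in Python 3.11.15 with NumPy 2.4.6 and SciPy 1.17.1. Shares per library were compared by exact two-sided permutation. Merging and distances were tested on simulated lists. Named regions are the 10 highest by mean percentile (ties to the wider), the 5 widest, the 5 runs with most members and the 5 nearest either side of the rule. The members, lists and distances were chosen with earlier results of these data known. Gene lists and cell type markers written at the start were not used here, since no mm9 annotation was at hand. Alternatives were a score of at least 160, other merging, distances and chromosomes, and each library left out.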

Additional observations from a re-analysis of the deposited data

How the results depend on the processing

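Of 83 recomputed values 52 stayed within the spread or side of the threshold set for them, 26 moved, and 5, all of H3K27me3, turned sign. For H3K4me3 and H3K27me3 the threshold was set on p, which cannot fall under 0.333 here and so could not cross it. Only a turn of sign could show for these 2 marks, and their values among the 52 are no sign of stability. With scores of at least 160 the median width was 3413.5 bp, the share beside kept H3K36me3 38.4% and the share WT-higher in both replicates 6.22%. Merging up to 1 kb apart gave 1652 regions and shares of 35.4% and 14.2%. Requiring no KO peak within 1 kb gave 38.7% and 13.0%. The share beside kept H3K36me3 was 32.7% within 5 kb, 56.6% within 20 kb and 67.6% where kept meant at least 1 library of each genotype. The H3K27me3 difference between KO and WT turned to 0.151 points with peaks merged up to 1 kb, 0.0654 with no KO peak within 1 kb and 0.112 for overlap alone. Adding chromosome X changed no call.

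Leaving out 1 library gave 3490 to 15375 regions, 2584 to 7641 groups, median widths of 1021 to 2765 bp, mean percentiles of 22.9 to 43.3, shares beside kept H3K36me3 of 43.5% to 61.8% and shares WT-higher of 6.43% to 18.4%. Fewer KO or WT lists to meet make the rule looser by construction. The H3K4me3 difference ranged from 0.651 to 8.01 points and the H3K27me3 one from -1.41 to 1.30. With libraries paired by replicate number as a block, the H3K4me3 difference was 4.33 points (exact sign-flip permutation p = 0.5) and the H3K27me3 one -0.0558 (p = 1, exact). Deviations of same-numbered libraries correlated at 0.25 and 0.45 for H3K4me3 and H3K27me3, but the labels pair nothing. Peak lists without read counts limit all of these values, since a KO signal just under the threshold reads as absence.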

Other observations

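Joined under 50 kb, the largest group of WT-only regions lay at chr14:87146482-87538807, a place picked after its values were seen. It held 24 WT-only regions among 40 regions of both WT libraries over 392 kb. H3K36me3 peaks covered 11215 and 42507 bp of it in KO and 110618 and 158465 bp in WT, in 11 and 22 peaks in KO and 67 and 58 in WT. None of the 24 was called in both WT difference lists.

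The widest WT-only region, chr19:28563305-28599930, was a single listing of 36626 bp in WT replicate 2 with a score of 90.7, at percentile 3.92 of that list, and scored 691.7 in WT replicate 1, at percentile 78.0.

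Of the 1834 regions that are WT-only when every list is limited to scores of at least 160, 850 (46.3%) met a WT-only region of the full lists. The others lay on merged regions of the full lists that also held a KO peak.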
